A study of Mus musculus with 32 samples.

Results

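Islr2, Lingo1, Lrrtm1, Lrrtm2, Lrrtm3, Lrrn3, Slitrk1, Slitrk5 and Flrt3 encode neuronal membrane proteins with leucine-rich repeats (LRR), and their mRNA was measured in the frontal cortex (FCtx) of mice that drank ethanol and of controls. A list of 10 such genes was selected on the ethanol-control difference of these same arrays, with Islr2 leading it, so the values of that difference in the members, counts of calls included, are given below as a description that supports nothing. Of the 10 listed genes, 9 are on the Illumina MouseRef-8 v2.0 array under their symbols, out of 18138 gene symbols in all. Lrrc4b has no probe on the array by symbol or by accession. The 9 genes have 10 probes, 2 of them for Slitrk5, and all 10 are among the 10187 probes (7926 genes) that were detected on at least 24 of the 32 arrays and were therefore tested.

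The mice were female F1 hybrids of the strains C57BL/6J and FVB/NJ, for which the labels name 1 direction of the cross and the methods name both. Ethanol-treated mice (n = 20) could choose between water and 20% ethanol for a few hours in the dark over 20 days, and controls (n = 12) were untreated. The study's discussion places the drinking in early adulthood, and an exact age is not given in the sources used here. Each array holds the dorsal FCtx of 1 mouse, a piece cut rostrally without the olfactory bulbs that spans association, cingulate, prelimbic and motor areas. RNA was extracted in batches that held both groups, which the labels do not tie to arrays. The 32 arrays lie on 4 chips of 8 arrays, with ethanol-treated mice alone on chips 1 and 2, controls alone on chip 4, and 4 mice of each group on chip 3. On chip 3 the ethanol-treated mice took every other place from A to G (odd positions) and the controls every other place from B to H (even positions), so that treatment and position cannot be told apart within that chip, and treatment and chip cannot be told apart outside it. On every chip the mice at even positions have higher mouse numbers than those at odd positions. Between 9480 and 11544 probes were detected per array, with a detection p below 0.01, and the lowest number belonged to control mouse 66 on chip 4.

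Proteins of these families carry leucine-rich repeats on the outside of the cell, through which they bind other membrane proteins of the same or of a neighbouring cell. Islr2 (also known as Linx) takes part in axon guidance and outgrowth. Lingo1 is a co-receptor of the Nogo receptor complex, which restrains axon growth and myelination. The Lrrtm proteins sit in the postsynaptic membrane and bind neurexins, the Slitrk proteins bind receptor-type tyrosine phosphatases such as Ptprd and Ptprs, and Flrt3 binds latrophilins and Unc5 receptors. Lrrn3 is a neuronal LRR protein whose role is less well described.

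Every value below is the light of 1 bead-bound probe of 50 bases, so a change of a transcript outside these bases was not seen. The start of 5 probes is shown because the results turn on them, with the first 30 bases in the direction of the deposited sequence. Islr2 and Lingo1 are the members with the lowest ethanol-control differences, Slitrk1 differed between sets of arrays, and the 2 Slitrk5 probes read the same gene and did not vary together.

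Islr2: cgccgagcgtgggctatagacttctgtgtc
Lingo1: aacagcacggtcagtggaaagagtcaggag
Slitrk1: cgaaagcggtccaagagaagggatgccaat
Slitrk5 bright probe: cacagaggcgtcgttgcactggattcgctg
Slitrk5 dim probe: ccggtctcgagaaggcaattccgtggagga

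In the coordinates of the array file, whose genome build is not given in the sources used here, the Islr2 probe lies at chr9:58044389-58044438 on the minus strand. The Lingo1 probe lies on the same chromosome and strand, at chr9:56466478-56466527. The Slitrk1 probe lies at chr14:109310509-109310558 on the minus strand. The Slitrk5 probes lie on the plus strand, at chr14:112081776-112081825 for the probe called bright here and at chr14:112080465-112080514 for the dim one. These names only tell the 2 apart by their signal on the array. The bright probe starts at base 4226 and the dim probe at base 2915 of the transcript that the array file names. The accessions of all 10 member probes matched the same symbol in RefSeq. The Flrt3 probe shares 20 bases or more with 1 probe that the array file gives under another symbol, so its signal may not be that of Flrt3 alone, and the other 9 share none. The dim Slitrk5 probe was detected on 29 of the 32 arrays and the other 9 on all 32, with 23 to 62 beads read per probe and array.

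Islr2 had less mRNA signal in ethanol-treated mice than in controls. In the deposited signal, which is not normalized, it ranged from 264.4 to 603.9 (median 362.7) in ethanol-treated mice and from 355.3 to 942.9 (median 603.03) in controls. On the normalized log2 scale used from here on, the lowest, median and highest levels were 8.50, 8.69 and 9.31 in ethanol-treated mice and 8.91, 9.52 and 9.75 in controls. All 20 ethanol-treated mice lay below the control median. The groups overlapped, with 6 ethanol-treated mice above the lowest control and 4 controls below the highest ethanol-treated mouse. The difference of the means was -0.64 (SE 0.09, 95% confidence interval -0.82 to -0.45), which on this scale is 64.4% of the control level. With a plain log2 transform the difference was -0.82, and with normexp background correction -1.09, so the percentage depends on the transform. On the scale used here, no other probe among the 10187 tested had a lower difference. In bulk tissue, fewer cells that express a gene and less RNA per cell cannot be told apart.

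**Figure D1:**
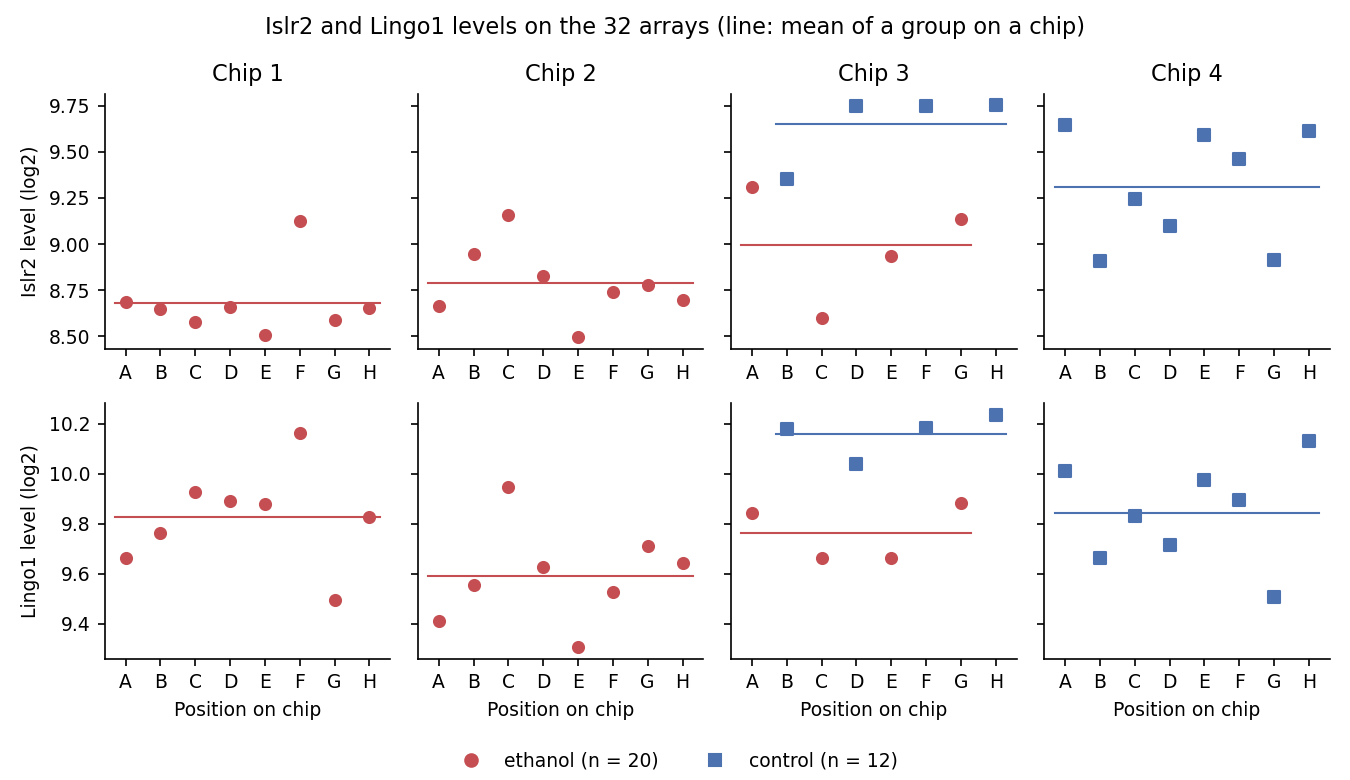
Levels of Islr2 (upper row) and Lingo1 (lower row) on the log2 scale against position A to H on each of the 4 chips, with 1 point per mouse, red circles for ethanol-treated mice, blue squares for controls, and a line at the mean of a group on a chip. On chip 3 the 4 controls lie above the 4 ethanol-treated mice for both genes, whereas on chip 4 the Islr2 levels of the controls spread from 8.91 to 9.65.

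Chip 3 is the only chip that holds both groups. There Islr2 stood at 9.31, 8.60, 8.93 and 9.14 in the ethanol-treated mice and at 9.35, 9.75, 9.75 and 9.75 in the controls. The groups did not overlap, although the highest ethanol-treated mouse and the lowest control, mouse 52, were close to each other. The difference on chip 3 was -0.65 (95% confidence interval -0.94 to -0.37), and again no probe tested had a lower one. Between the chips, the 16 ethanol-treated mice of chips 1 and 2 against the 8 controls of chip 4, with position in the model, gave -0.57 (-0.77 to -0.38), and 1 probe had a lower difference. Of those 16 mice, 13 lay below the lowest control of chip 4, and 5 of the 8 controls lay above the highest of the 16. In 1 model of all arrays, which also took position out of the chip 3 estimate, the difference on chip 3 minus that between the chips was -0.04 (-0.46 to 0.38).

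The levels of Islr2 within a treatment were not the same on all chips. Controls at even positions had a mean of 9.65 ± 0.20 (SD, n = 4) on chip 3 and of 9.27 ± 0.32 (n = 4) on chip 4. This difference of 0.38 (0.09 to 0.67) did not pass an FDR of 1% (limma, adjusted p = 0.11). Ethanol-treated mice at odd positions likewise had a higher mean on chip 3, 8.995 ± 0.30 (n = 4), than on chips 1 and 2, with a difference of 0.31 (0.05 to 0.58) that did not pass either (limma, adjusted p = 0.41). Chip 1 and chip 2 differed by -0.11 (-0.28 to 0.07, limma, adjusted p = 0.56), and odd and even positions of chips 1, 2 and 4 by -0.04 (-0.23 to 0.14, limma, adjusted p = 0.78).

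Lingo1, the co-receptor gene, was the other member with a lower mean in ethanol-treated mice after normalization. In the deposited signal its median was 857.1 with ethanol and 833.8 in controls. On the normalized log2 scale its lowest, median and highest levels were 9.31, 9.69 and 10.16 with ethanol and 9.51, 9.99 and 10.24 in controls. The ranges overlapped over most of their length. Of the 20 ethanol-treated mice, 19 lay below the control median. The difference was -0.23 (SE 0.07, 95% confidence interval -0.38 to -0.08), or 85.4% of the control level on this scale. It was -0.25 with a plain log2 transform and -0.29 with normexp background correction. On chip 3 the ethanol-treated mice stood at 9.84, 9.66, 9.66 and 9.88 and the controls at 10.18, 10.04, 10.18 and 10.24, without overlap, and the difference was -0.40 (-0.53 to -0.26). Between chips 1 and 2 and chip 4 it was -0.13 (-0.31 to 0.04). Controls at even positions were higher by 0.31 on chip 3 than on chip 4 (0.12 to 0.50, limma, adjusted p = 0.056), and chip 1 was higher than chip 2 by 0.23 among ethanol-treated mice (0.06 to 0.41, limma, adjusted p = 0.16). Neither passed an FDR of 1%.

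At an FDR of 1% in the comparison of all 32 arrays, Islr2 was the only member probe called, 1 of 10, where 8.14% of the 10187 probes were called. With chip as a block, which leaves chip 3 to carry the difference, 0 of the 10 member probes and 0.147% of all probes were called. The members were chosen with this comparison known, and nothing is read from these counts. Of the 829 probes called, 42.6% were higher with ethanol, against 68% of the 25 called after median scaling in place of quantile normalization. At an FDR of 10% with at least a 1.1-fold difference, 3 member probes were called, Islr2 and Lingo1 lower and Lrrn3 higher, where 10.7% of all probes were. After median scaling, Lingo1 (limma, adjusted p = 0.26) and Lrrn3 (limma, adjusted p = 0.24) did not pass an FDR of 10%. On chip 3, 3 member probes did not overlap between the groups, Islr2, Lingo1 and Slitrk1, all lower with ethanol, where 15.2% of all probes tested did not overlap in either direction.

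**Figure D2:**
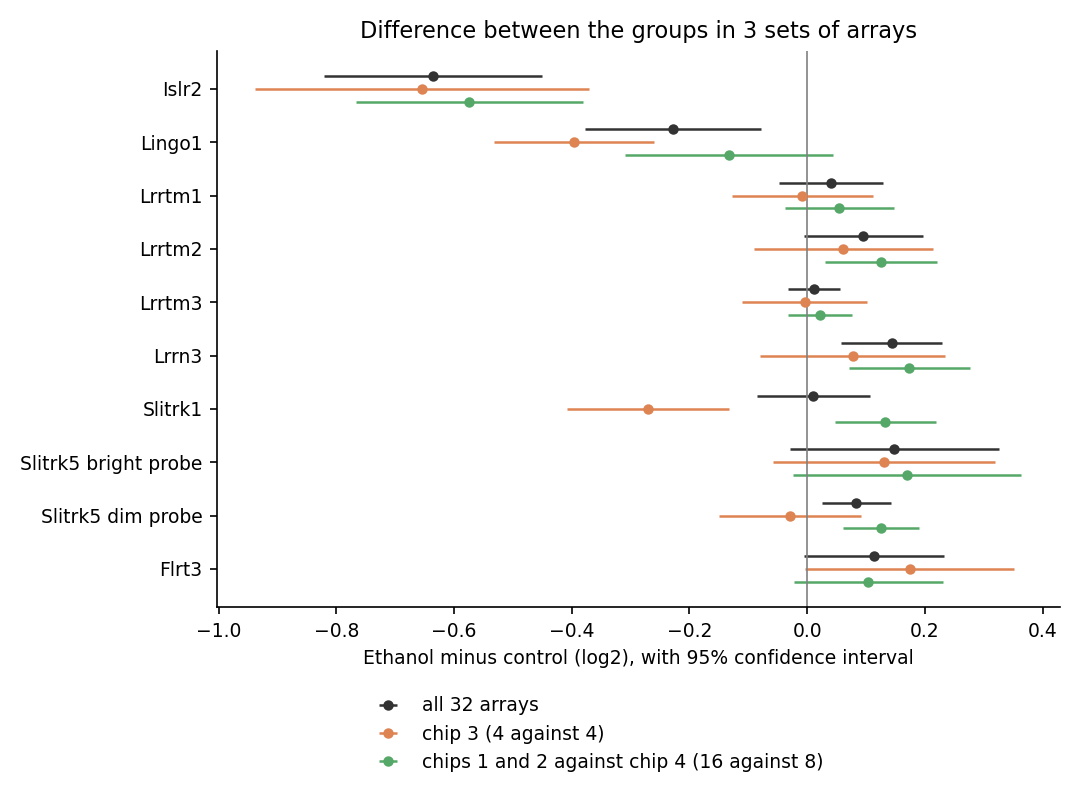
Difference of the 10 member probes between ethanol-treated mice and controls on the log2 scale, with its 95% confidence interval, over all 32 arrays (black), on chip 3 alone (orange) and between chips 1 and 2 and chip 4 (green). Islr2 lies between -0.65 and -0.57 in all 3 sets, whereas Slitrk1 lies at -0.27 on chip 3 and at 0.13 between the chips.

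The other 8 member probes had positive differences between 0.01 and 0.15 over all 32 arrays. The median of the 10 was 0.06, and 4930 of all 10187 probes were positive. Lrrn3 had a level of 9.46, 9.68 and 9.93 (lowest, median and highest) with ethanol and of 9.39, 9.52 and 9.78 in controls, a difference of 0.14 (0.06 to 0.23). It was 0.08 (-0.08 to 0.23) on chip 3 and 0.17 (0.07 to 0.28) between the other chips, and 18 of 20 ethanol-treated mice lay above the control median.

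The 3 Lrrtm genes, which encode postsynaptic partners of neurexins, had small differences between the groups. Over all arrays the difference was 0.04 (-0.05 to 0.13) for Lrrtm1, 0.10 (-0.01 to 0.20) for Lrrtm2 and 0.01 (-0.03 to 0.06) for Lrrtm3. Lrrtm3 had the narrowest range of the members, from 8.45 to 8.66 over both groups. On this scale its interval leaves room for at most a few percent in either direction. In the deposited signal it ranged from 184.5 to 373.0, not far above the array medians of 146.2 to 203.3. With normexp background correction its difference was 0.03, so the interval does not bound the change of the transcript.

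Slitrk1, a postsynaptic partner of receptor tyrosine phosphatases, had nearly the same mean in both groups, with a difference of 0.01 (-0.09 to 0.11), but this value joins sets of arrays that went opposite ways. On chip 3 the ethanol-treated mice stood at 8.87, 9.02, 8.87 and 9.06 and the controls at 9.36, 9.10, 9.25 and 9.19, a difference of -0.27 (-0.41 to -0.13). Between chips 1 and 2 and chip 4 it was 0.13 (0.05 to 0.22). In 1 model of all arrays with position, the 2 estimates differed by -0.41 (SE 0.08, -0.58 to -0.24). This SE reflects the spread of mice and not that of chips, and treatment and chip cannot be told apart in the second estimate. At an FDR of 1% in this comparison 1 of the 10 member probes was called, that of Slitrk1, where 0.795% of all probes were. It is built from the same contrast that chose the members, and is a description too. Its control level at even positions was 9.23 ± 0.11 (SD, n = 4) on chip 3 and 8.93 ± 0.08 (n = 4) on chip 4, a difference of 0.30 (0.16 to 0.43) that stood just outside an FDR of 1% (limma, adjusted p = 0.018). Ethanol-treated mice at odd positions differed by -0.10 between chip 3 and chips 1 and 2 (-0.25 to 0.05, limma, adjusted p = 0.72).

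Slitrk5, of the same family, was read by 2 probes that did not vary together. The bright probe had lowest, median and highest levels of 11.20, 11.57 and 11.97 with ethanol and of 11.11, 11.45 and 12.08 in controls, a difference of 0.15 (-0.03 to 0.33). The dim probe differed by 0.08 (0.02 to 0.14), with 19 of 20 ethanol-treated mice above the control median. Its difference was -0.03 (-0.15 to 0.09) on chip 3 and 0.13 (0.06 to 0.19) between the other chips. Its deposited signal ran from 173.7 to 293.3 with ethanol and from 152.2 to 258.8 in controls, near the array medians of 146.2 to 203.3. After the mean of each group on each chip and then of odd and even positions had been subtracted, the correlation of the 2 probes over the 32 arrays was -0.08 (Pearson's r). Flrt3 differed by 0.11 (-0.01 to 0.23), with 9.67, 9.51, 9.45 and 9.23 in the ethanol-treated mice of chip 3 and 9.37, 9.39, 9.23 and 9.17 in the controls beside them, which overlapped.

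Position was compared on the 24 arrays of chips 1, 2 and 4, on each of which all mice had 1 treatment. The difference that chose the members is not free of position, because on chip 3 all ethanol-treated mice held odd and all controls even positions. With position in the model of all 32 arrays that difference went from 0.04 to 0.01 for Lrrtm1 and from 0.10 to 0.14 for Lrrtm2. On the 24 arrays, 2 of the 10 member probes passed an FDR of 1% by position, where 3.91% of all probes tested did. Lrrtm1 was higher at odd positions, with levels of 8.56, 8.78 and 8.95 (lowest, median and highest) against 8.51, 8.60 and 8.87 at even positions, a difference of 0.16 (0.08 to 0.24, limma, adjusted p = 0.0078). Lrrtm2 was lower there, with 8.78, 8.91 and 9.16 against 8.92, 9.13 and 9.34, a difference of -0.18 (-0.26 to -0.10, limma, adjusted p = 0.0057). The ranges overlapped for both genes, and both differences had the same sign on each of the 3 chips. With all probes of the array tested, neither passed (limma, adjusted p = 0.016 for Lrrtm1 and 0.013 for Lrrtm2). After median scaling neither passed, with differences of 0.18 for Lrrtm1 (limma, adjusted p = 0.11) and -0.14 for Lrrtm2 (limma, adjusted p = 0.22). Without control mouse 66, Lrrtm1 no longer passed (limma, adjusted p = 0.0103).

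**Figure D3:**
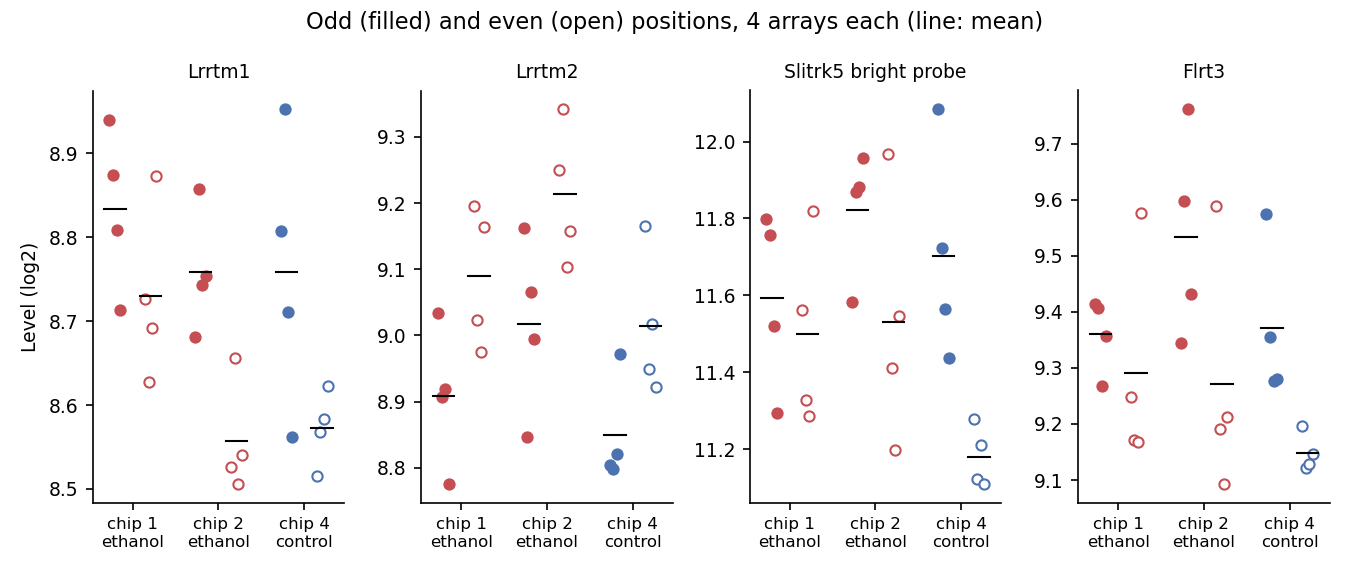
Levels on the log2 scale of Lrrtm1, Lrrtm2, the bright Slitrk5 probe and Flrt3 at odd (filled points) and even positions (open points) of chips 1, 2 and 4, with 1 point per mouse, a line at the mean of 4 mice, red for ethanol-treated mice and blue for controls. Lrrtm2 has the lower mean at odd positions on each chip and the other 3 probes the higher one.

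The bright Slitrk5 probe was higher at odd positions by 0.30 (0.12 to 0.48, limma, adjusted p = 0.025) and Flrt3 by 0.19 (0.07 to 0.30, limma, adjusted p = 0.035), and neither passed an FDR of 1%. On chip 4, where all mice were controls, the bright Slitrk5 probe stood at 12.08, 11.72, 11.56 and 11.44 at odd positions and at 11.28, 11.12, 11.21 and 11.11 at even positions. The remaining members differed by at most 0.06 between positions. No member, and 0% of all probes tested, had an odd-even difference that depended on treatment at an FDR of 1%. For the bright Slitrk5 probe that dependence was -0.33 (-0.70 to 0.04, limma, adjusted p = 0.87).

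With position and chip both in the model, the difference between the groups rests on chip 3 after the odd-even difference of the other chips has been taken out. Islr2 then stood at -0.61 (-0.98 to -0.24), Lingo1 at -0.33 (-0.61 to -0.06) and Slitrk1 at -0.28 (-0.43 to -0.12). Lrrtm1 moved from -0.01 on chip 3 to -0.17 (-0.32 to -0.02) and Lrrtm2 from 0.06 to 0.24 (0.07 to 0.41). The bright Slitrk5 probe moved from 0.13 to -0.17 (-0.51 to 0.17) and Flrt3 from 0.17 to -0.01 (-0.25 to 0.22). In this model 0 of the 10 member probes and 0.00982% of all probes, a single probe, were called.

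Chips that held the same treatment were compared in the same way. Between chips 1 and 2, 0 of the 10 member probes passed an FDR of 1%, against 0.0687% of all probes. An unadjusted p below 0.05 (limma) was found for 4 of the 10, and for 1698 of the 10187 probes. Between the controls of chips 3 and 4 at even positions, 0 passed, against 1.2% of all probes, and 5 of the 10 had an unadjusted p below 0.05, as had 2290 of all probes. All 10 member probes had a positive difference there, with a median of 0.12, whereas 4958 of the 10187 probes tested did, with a median near 0. These controls are part of the comparison that chose the members, the probes were read on the same arrays, and nothing is read from this count. The bright Slitrk5 probe was at the edge, with 0.37 (0.22 to 0.52, limma, adjusted p = 0.0101). Between the ethanol-treated mice of chip 3 and those of chips 1 and 2 at odd positions, 0 of the 10 and 0% of all probes passed, and 3 member probes had an unadjusted p below 0.05, as had 966 of all probes.

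Markers of other cell types and regions were followed in the same comparisons. An olfactory bulb list, of which 4 of 10 genes were tested, was higher by 0.30 at odd positions and by 0.50 with ethanol on chip 3 (mean difference on the log2 scale), and by 0.18 over all arrays. Of its 5 probes, 0 were called by position or over all arrays, against 3.91% and 8.14% of all probes. On chip 3, 3 were called, all higher, where 117 of all 10187 probes were called higher and 127 lower. The summed level of the bulb list ran from 1475 to 7324 in ethanol-treated mice and from 1427 to 4836 in controls. Its markers Eomes and Tbx21 did not pass the detection filter. An oligodendrocyte list, 9 of 10 genes tested, was lower by 0.11 at odd positions and by 0.31 with ethanol on chip 3, with summed levels from 22234 to 51974 and from 20433 to 41889. Over all arrays it was lower by 0.03. Of its 16 probes, 0 were called by position or over all arrays and 1, lower, on chip 3, and between the other chips 9 of the 16 were higher with ethanol. Cortical projection neuron markers, 4 of 6 tested, were lower by 0.19 with ethanol on chip 3, and interneuron markers, 6 of 8 tested, higher by 0.21. Over all arrays the projection neuron list was lower by 0.12, with 3 genes lower and 1 higher. There 2 of its 5 probes were called, both lower, where 8.14% of all probes were called. Of the projection neuron markers, Slc17a7, Camk2a, Nrgn and Neurod2 were detected on all 32 arrays and Neurod6 on none. All 8 immediate early genes tested, of 9 listed, were lower with ethanol over all arrays, by 0.15 on average. Of these genes, 3 were called, where 8.14% of all probes were. On chip 3 they were lower by 0.04, with 3 of the 8 higher and 0 called. The other lists, for upper and deep layers, subplate, interneurons, striatum, astrocytes, microglia and endothelium, differed by 0.09 or less over all arrays. The part of these markers in the values of the members was not tested.

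Most pairs of members did not vary together from mouse to mouse. After centring on group and chip and then on position, 4 of the 45 pairs of member probes had a Pearson's r above 0.5 over the 32 arrays, none was below -0.5, and the median was -0.04. The closest pair was the bright Slitrk5 probe with Flrt3 (r = 0.82, Spearman's rho = 0.83), 2 genes that also shared the direction of their odd-even difference. Next came Islr2 with Lingo1 (r = 0.75, rho = 0.70). Islr2 and Lrrtm3 followed (r = 0.55, rho = 0.52), then Lrrtm1 and the bright Slitrk5 probe (r = 0.55, rho = 0.58). Islr2 and Lrrtm2 went opposite ways (r = -0.45, rho = -0.43). These points share hybridization and RNA quality within an array, and the correlations are given without a test.

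**Figure D4:**
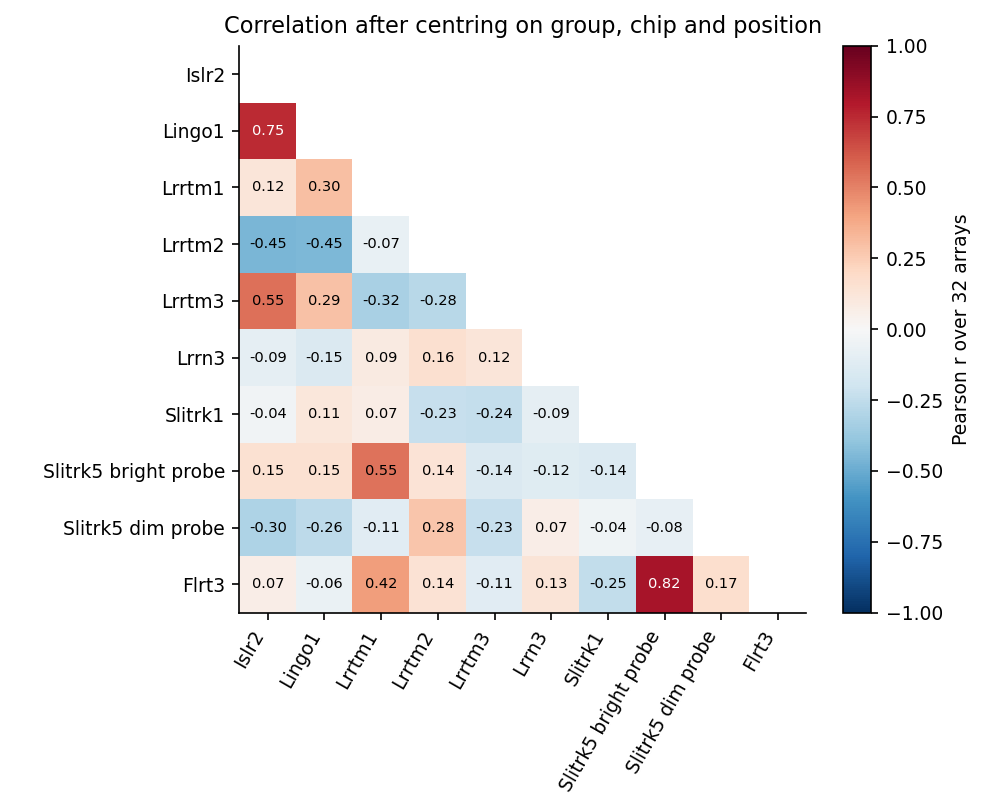
Pearson's r of each pair of the 10 member probes over the 32 arrays, from blue (-1) to red (1). Levels were centred on group and chip and then on position, which leaves part of the odd-even difference in them. The bright Slitrk5 probe with Flrt3 and Islr2 with Lingo1 stand out at 0.82 and 0.75, and the 2 Slitrk5 probes are at -0.08.

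Among 7925 other genes, each read by the tested probe of highest mean level, the 5 whose centred levels were most like those of Islr2 were Timp2 (r = 0.84), an inhibitor of metalloproteinases, Atp2b2 (0.82), a calcium pump of the plasma membrane, Dlg2 (0.80), a scaffold protein of the postsynaptic density, Pigt (0.80), of the enzyme that attaches GPI anchors, and Gas2l1 (0.79), which links actin and microtubules. All 5 had a lower mean with ethanol, by between 0.23 and 0.35. Without centring, the 5 most alike were Gas2l1 (0.92), Ap2b1 (0.88), a subunit of the clathrin adaptor, Pigt (0.87), Zmiz2 (0.87), a co-regulator of transcription, and Sphk2 (0.87), a sphingosine kinase. The correlation of whole arrays with each other lay between 0.985 and 0.996.

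The families of the members were then followed in genes that are not members. Of 43 such neuronal LRR genes, 23 were tested, with 26 probes. At an FDR of 1%, 0 of the 26 were called between ethanol-treated mice and controls, against 8.14% of all probes, and 6 had an unadjusted p below 0.05 (limma), as had 3234 of the 10187 probes. Their differences ran from -0.12 to 0.22, with a median of -0.01, against a median near 0 over all probes. The highest was that of Slitrk4, at 0.22 ± 0.07 (SE, limma, adjusted p = 0.019), with a mean level of 9.31 ± 0.21 (SD, n = 20) with ethanol and 9.09 ± 0.16 (n = 12) in controls. It was 0.09 on chip 3 and 0.27 between the other chips, and passed the wider threshold of 10% with a 1.1-fold difference. The lowest was that of Amigo1, at -0.12 ± 0.04 (limma, adjusted p = 0.027), whose second probe stood at 0.03. Slitrk4 and Amigo1 are named as the ends of the range. Of the close relatives, Lingo2, Lrrn1, Lrrn2 and Slitrk3 lay between -0.03 and 0.04, and Flrt2 stood at 0.11 (SE 0.05, limma, adjusted p = 0.075). Of the relatives, Islr, Lrrtm4, Slitrk2 and Flrt1 did not pass the detection filter.

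Known binding partners of the members included probes that were called. Of 26 listed symbols, some of which are newer names of genes that the array holds under older ones, 15 were tested with 22 probes. Of these 22, 4 were called at an FDR of 1%, 3 higher and 1 lower with ethanol, against 8.14% of all probes, and their median difference was 0.09. Nrxn2, a neurexin and thus a presynaptic partner of the Lrrtm proteins, was lower by 0.55 (SE 0.10, limma, adjusted p = 0.00034), with 11.13 ± 0.29 (SD, n = 20) against 11.68 ± 0.30 (n = 12). Nrxn3, of the same family, was higher by 0.31 (SE 0.07, limma, adjusted p = 0.0028), with a second probe higher by 0.23. Lphn1, a latrophilin and partner of Flrt3, was higher by 0.38 (SE 0.08, limma, adjusted p = 0.0012), with 10.64 ± 0.25 against 10.27 ± 0.20. The phosphatases Ptprd and Ptprs, partners of the Slitrk proteins, were not called, and their differences lay between 0.08 and 0.18. Dlg4, which anchors the Lrrtm proteins at the synapse, stood at -0.18 (SE 0.07, limma, adjusted p = 0.053).

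**Figure D5:**
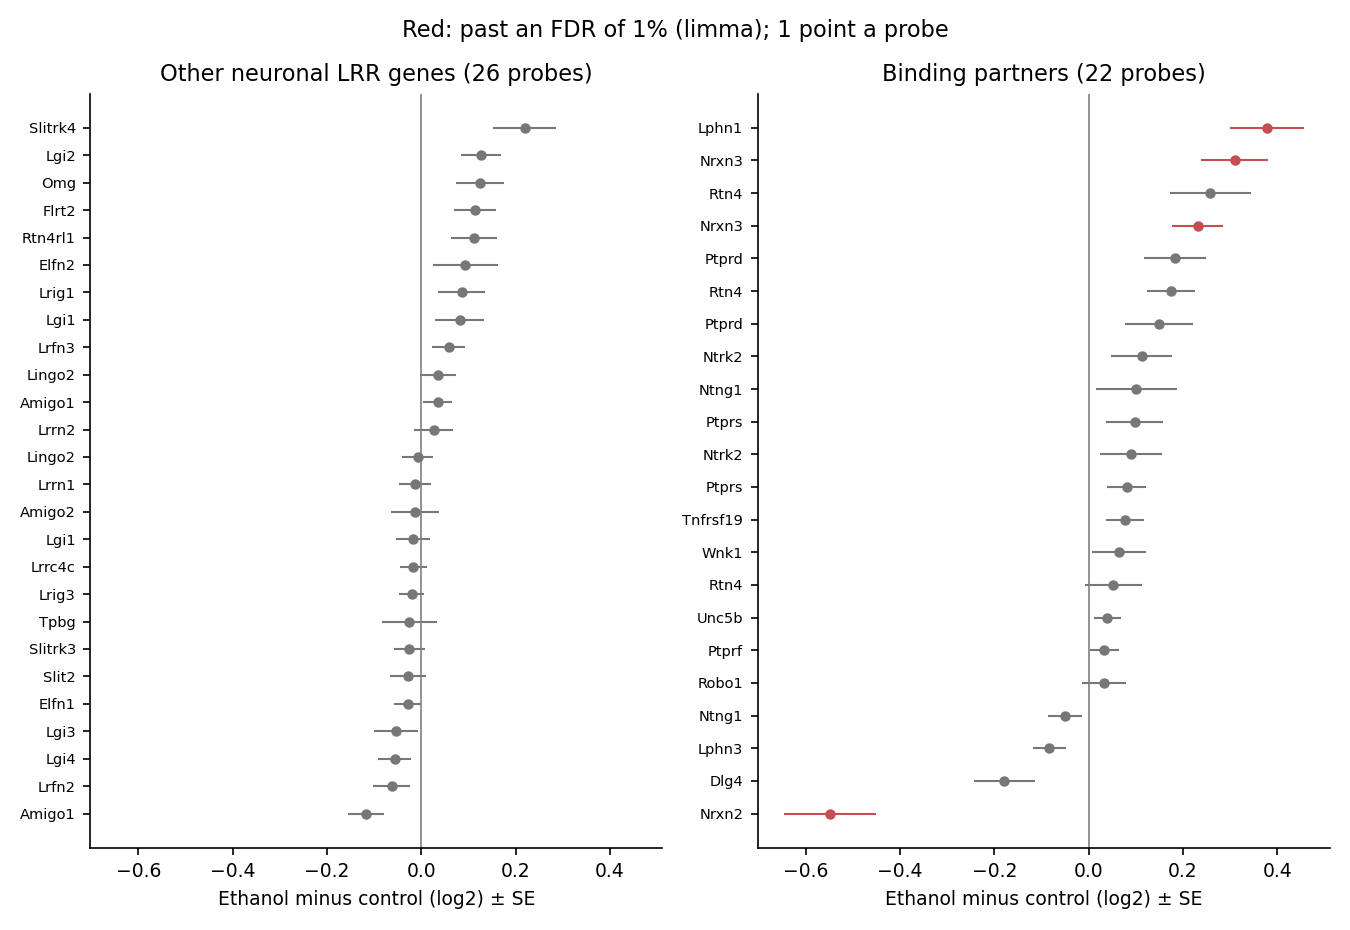
Difference between ethanol-treated mice and controls on the log2 scale, with its SE, for the 26 tested probes of other neuronal LRR genes (left) and the 22 of binding partners (right), 1 point per probe, with probes past an FDR of 1% in red. No LRR probe is red, and among the partners Nrxn2 is red at -0.55 and Lphn1 at 0.38.

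The called partners were then followed in the sets of arrays. The Nrxn2 difference was -0.58 on chip 3, -0.51 between the other chips and -0.44 with chip and position in the model, where it was not called (limma, adjusted p = 0.54). The second Nrxn3 probe stood at 0.29, 0.19 and 0.35 in the same order, and was not called in the last either (limma, adjusted p = 0.29). The Nrxn3 probe with the higher mean stood at 0.05 on chip 3 and at 0.43 between the other chips. Lphn1 was higher by 0.34 on chip 3 and by 0.40 between the other chips, but it was also higher at odd positions of chips 1, 2 and 4 by 0.32 (SE 0.07, limma, adjusted p = 0.0053), and with chip and position in the model its difference was 0.02 (SE 0.14). Wnk1, a kinase that binds Lingo1, was the other partner called by position, lower at odd positions by 0.18 (SE 0.04, limma, adjusted p = 0.0067). With chip as a block, with or without position, 0 of the 22 partner probes were called. After median scaling 1 was, of 25 among all probes.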

How the data were processed

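Labelled cRNA from the FCtx of 32 mice was hybridized to Illumina MouseRef-8 v2.0 BeadChips. The authors deposited intensities that are not normalized, the mean bead signal of 25697 probes on each array on a linear scale. The deposited files also hold a detection p-value per probe and other values, namely bead numbers and the standard error of each bead mean. The submitters' processing notes name lumi and limma without versions.

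From the bead values, a variance-stabilizing transform modelled on that of lumi and quantile normalization were computed (R 4.3.3, package data.table, version 1.17.8). Tests ran in limma 3.58.1 (lmFit and eBayes) over probes detected at p below 0.01 on 24 or more arrays, with Benjamini-Hochberg adjustment over all 10187 of them and an FDR of 1%. Groups came from the labels, which give condition, mouse, chip and position, and 0 columns were left without a sample. Covariates were none for ethanol against control, chip for position, and position for chip 1 against chip 2. Intervals are limma's at 95%. The fits of ethanol against control without covariates, of position and of chips within a treatment were also tested on simulated data. The other fits were not. The members and gene lists were chosen with earlier results of these data known. Named genes were all members, the genes of other lists past the threshold, and the 5 most like Islr2, with and without centring, while other genes of the lists were named after their values were seen. The change of the ethanol-control difference between sets of arrays, the dependence of the odd-even difference on treatment and the overlap on chip 3 were chosen after seeing the data. Alternatives were log2, normexp with an offset of 16, median scaling, other filters, array weights, chip and position terms, a wider threshold and leaving out arrays. Figures were drawn with Python 3.11.15 and matplotlib 3.10.9. Some genes of the lists are not reported here. The number of arrays, 4 per group on chip 3, limits the precision.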

Additional observations from a re-analysis of the deposited data

Results flagged for a closer look

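Within the groups of 4 or 8 mice that 1 chip and treatment form, 6 of 50 tested sets of levels held a mouse that stood apart from the rest, where chance gives about 1 in 20. Islr2 was 9.126 in ethanol-treated mouse 20 on chip 1, where the other 7 ran from 8.51 to 8.69. It was 9.352 in control mouse 52 on chip 3, where the other 3 were all 9.75. Lrrtm3 was 8.45 in control mouse 59 on chip 4, below the other 7 at 8.53 to 8.57. Slitrk1 was 9.256 in ethanol-treated mouse 11 on chip 1, above the other 7 at 9.01 to 9.11, and 9.248 in ethanol-treated mouse 34 on chip 2, above the other 7 at 8.88 to 9.04. The dim Slitrk5 probe was 8.559 in ethanol-treated mouse 9 on chip 1, above the other 7 at 8.34 to 8.43.

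The ethanol-control difference of Slitrk1 on chip 3 minus that between the other chips was -0.4097 (log2 scale, limma model of all arrays). Slitrk1 passed an FDR of 1% there but had been chosen on the same contrast. Between the other chips treatment and chip cannot be told apart, and the model takes mice, not chips, as replicates. The ethanol-control difference was -0.27 on chip 3 and 0.13 between the others. On chip 3 the oligodendrocyte list was lower with ethanol by 0.31 and the olfactory bulb list higher by 0.50, and their part in this difference was not tested.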

How the results depend on the processing

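The Islr2 difference stayed negative in every alternative run. It was -1.09 with normexp background correction and between -0.82 and -0.61 in the others, against -0.64. On chip 3 it ran from -0.76 to -0.52 when each array was left out in turn. The count of member probes called between ethanol-treated mice and controls went from 1 to 0 with chip as a fixed block, to 0 with chip and position, and to 3 with the wider threshold, while that of all probes went from 829 to 15, 1 and 1093. The count among other neuronal LRR genes went from 0 to 1 with the wider threshold. The count among binding partners went from 4 to 1 with median scaling, 0 with chip as a fixed block, 1 with chip as a random block and 0 with chip and position. Of the 2 member probes called by position, 0 were called with median scaling, 0 with all probes of the array tested and 1 without control mouse 66. Among controls of chips 3 and 4, leaving out each chip 3 mouse gave 0 to 1 calls, the 1 being the bright Slitrk5 probe without control mouse 56. The other 64 values with an alternative setting kept their side of the threshold and their size, within 1.5 times for counts and within the spread between mice for Islr2. The causes of these shifts were not tested. No paired analysis was possible because the groups share no mouse numbers. Signal over background limits the dim Slitrk5 probe, which was not detected on 3 of the 32 arrays.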
